A study of Mus musculus with 10 samples.

Results

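The glucocorticoid receptor Nr3c1 and a set of 7 genes tied to its action, Fkbp5, Tsc22d3, Sgk1, Dusp1, Klf9, Zbtb16 and Hsd11b1, were followed in lung RNA-seq libraries of 10 mice. The members were taken as the rows of the deposited expression table that carry one of these gene symbols, which gave 16 transcript rows for 8 of the 24394 symbols. All mice were female BALB/c animals, 8 weeks old when purchased, and whole lung tissue was used. Saline mice (n = 3) were the saline-treated controls. OVA mice (n = 3) were sensitized to ovalbumin by intraperitoneal injection with alum and challenged with it through the nose, a model of allergic asthma. Herb mice (n = 4) went through the same ovalbumin protocol and were given an ethanol extract of Descurainia sophia seeds by mouth (DSE in the study). None of the libraries is labelled as coming from a mouse given a glucocorticoid.

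Glucocorticoids are steroid hormones of the adrenal cortex. They bind the receptor in the cytoplasm, where it is held by HSP90 and its co-chaperones, and the loaded receptor enters the nucleus and raises or lowers the transcription of many genes. In the lung the pathway is known for its part in development, for surfactant production and for restraint of airway inflammation, and inhaled glucocorticoids are a mainstay of asthma treatment.

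Values are FPKM, the number of fragments scaled to transcript length and library size. Estimated depths lay between about 14900000 and 29300000 fragments per library, and those of OVA and Saline overlapped (exact permutation test, two-sided, p = 0.3). The composition of the libraries differed. Protein-coding RefSeq rows held 18.5% to 21.3% of the summed FPKM in Saline, 3.36% to 4.68% in OVA and 8.44% to 13.6% in Herb, and most genes had lower values in OVA as deposited. The median difference of all 11205 genes tested was -0.75 in OVA vs. Saline, 0.48 in Herb vs. OVA and -0.27 in Herb vs. Saline, on the log2(FPKM + 1) scale used for all differences below. The differences of the members between groups are therefore given as deposited and also rescaled, meaning after each library was multiplied to bring the 75th percentile of its expressed genes to a common value. Levels in FPKM and the overlap of libraries are given as deposited unless said otherwise. The direction of the genes as a whole turned with the scaling. Of the genes called in OVA vs. Saline, 5.37% were higher as deposited, 49.9% after this rescaling and 81.9% after rescaling to a common sum over protein-coding rows, where the median of all genes was 0.38. The same shares were 99%, 50.6% and 11.0% in Herb vs. OVA, and 12.7%, 53.6% and 87.0% in Herb vs. Saline. Gapdh, which every cell uses, is listed at 0 in most libraries, so a value of 0 may stand for an estimate that failed. The lung origin was checked on the surfactant gene Sftpc, which was between 210 and 3228 FPKM in every library, and the club cell gene Scgb1a1, which was 2471 FPKM or more in every library.

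A further property of the table touches the members. Transcript models that the assembler built beside the RefSeq transcripts carry no symbol, and reads of a gene can be shared out to them. A locus sum, chosen after seeing the data, adds to the RefSeq rows of a gene those models that carry the same locus number. The numbering assigned 5 models to Nr3c1, 5 to Fkbp5, 3 to Tsc22d3, 5 to Sgk1 and 9 to Zbtb16, and none to Dusp1, Klf9 and Hsd11b1. This assignment was inferred from the numbering, because the table gives no coordinates. Models were assigned to 2448 symbols in all, 1847 of them with a mean gene sum of at least 1 FPKM. For every other gene the locus sum equals the gene sum. The shares over all genes given beside locus sums therefore rest mostly on gene sums, whereas 5 of the 8 members have added models.

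In OVA vs. Saline, Tsc22d3, Sgk1, Dusp1, Klf9 and Hsd11b1 fell as deposited, 5 of the 7 members that passed the filter of a mean of 1 FPKM (limma adjusted p from 0.000253 to 0.00776). Over all genes 57.9% fell in this comparison. Genes of higher level fell more often. With a filter of a mean of 5 FPKM, which the same 7 members passed, 5 members fell beside 3118 of 3955 genes, whose median difference was -1.28. After rescaling, Tsc22d3, Sgk1, Klf9 and Hsd11b1 were lower in OVA, compared with 20.9% of all genes. Sgk1 and Hsd11b1 were the members called under quantile normalization, where 1917 of 11205 genes were lower, and on the protein-coding sum, where 978 of 11258 were. With locus sums all 8 members were tested and all 8 fell, beside 61.6% of all genes, and the groups did not overlap in any of them, as was so for 65.2% of all genes. Without Saline replicate 1 or 3 or OVA replicate 3 the locus sums called were 7. The rescaled locus sums of 5 members, Nr3c1, Tsc22d3, Sgk1, Klf9 and Hsd11b1, were lower in OVA, beside 23.2% of all genes. The median difference of the 8 rescaled locus sums was -0.75, where that of all genes was 0.01.

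In Herb vs. OVA, the same 5 genes rose as deposited (limma adjusted p from 0.0105 to 0.0337), while 44% of all genes rose. Only 1 member was called without OVA replicate 3, Herb replicate 1 or Herb replicate 2, and 2 were called without OVA replicate 1. With the filter of 5 FPKM 5 of the 7 members rose, beside 2709 of 3955 genes, whose median difference was 0.75. All 8 locus sums rose, beside 51.2% of all genes, and every Herb library was above every OVA library for all 8, as was so for 54% of all genes. The 8 locus sums called became 4 without OVA replicate 3, 5 without Herb replicate 1 or 2 and 6 without OVA replicate 1. After rescaling none of the 7 gene sums was called by limma, and 1 of them, Tsc22d3, had an unadjusted p under 0.05. Over all genes 0.367% were called higher. None of the 8 rescaled locus sums was called either, against 0.28% of all genes, and Nr3c1, Fkbp5 and Tsc22d3 had an unadjusted p under 0.05. The rescaled locus sums had a median difference of 0.57, where that of all genes was 0.03, again not matched for level. The differences of Herb vs. OVA contain the OVA libraries that also enter OVA vs. Saline, so the opposite signs of both comparisons are not independent of each other.

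In Herb vs. Saline, Sgk1, Klf9 and Hsd11b1 were lower in Herb as deposited (limma adjusted p from 0.0127 to 0.0202), where 22.7% of all genes were. With the filter of 5 FPKM 3 of the 7 members were lower, beside 1637 of 3955 genes. Sgk1 and Hsd11b1 remained lower after rescaling, beside 6.79% of all genes. None of the 7 members was called by limma under quantile normalization, with 2 at an unadjusted p under 0.05, and Sgk1 alone was called on the protein-coding sum. With locus sums Nr3c1, Sgk1, Klf9 and Hsd11b1 were lower, beside 24.6% of all genes, and after rescaling these were Klf9 and Hsd11b1, beside 8.23%. Groups did not overlap for 5 of the 8 locus sums, with Herb below Saline, compared with 37% of all genes. Without Saline replicate 2, Hsd11b1 and Klf9 missed the threshold as deposited (limma adjusted p = 0.0597 and 0.077). Of the 4 locus sums called, 1 was left without Saline replicate 2, and 2 were left without Saline replicate 1 or 3 or Herb replicate 3 or 4. In bulk tissue, fewer cells of a type and less RNA per cell cannot be told apart.

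**Figure D1:**
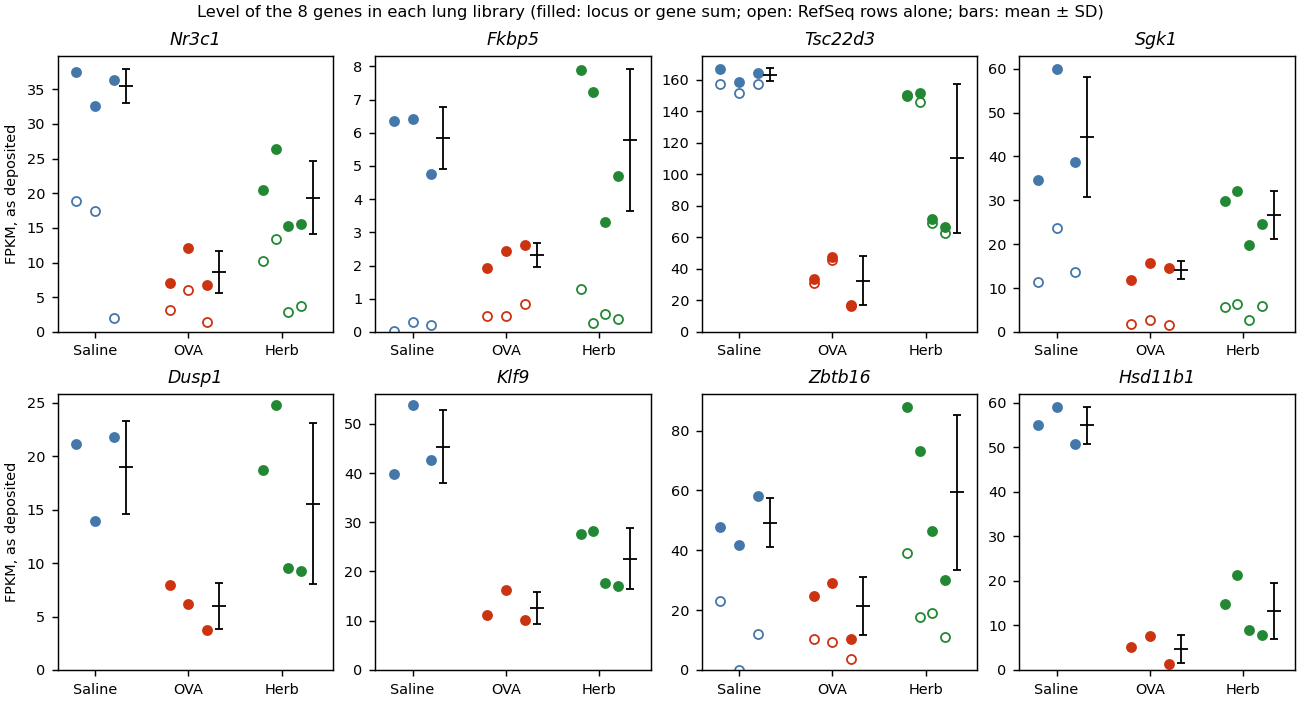
FPKM of each gene (vertical axis, as deposited, starting at 0) in the 3 Saline, 3 OVA and 4 Herb libraries. Filled points are locus sums, or gene sums where no model was assigned, open points are RefSeq rows alone, black bars give the mean ± SD of the filled points, and all filled OVA points of every gene lie below all filled Saline points.

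**Figure D2:**
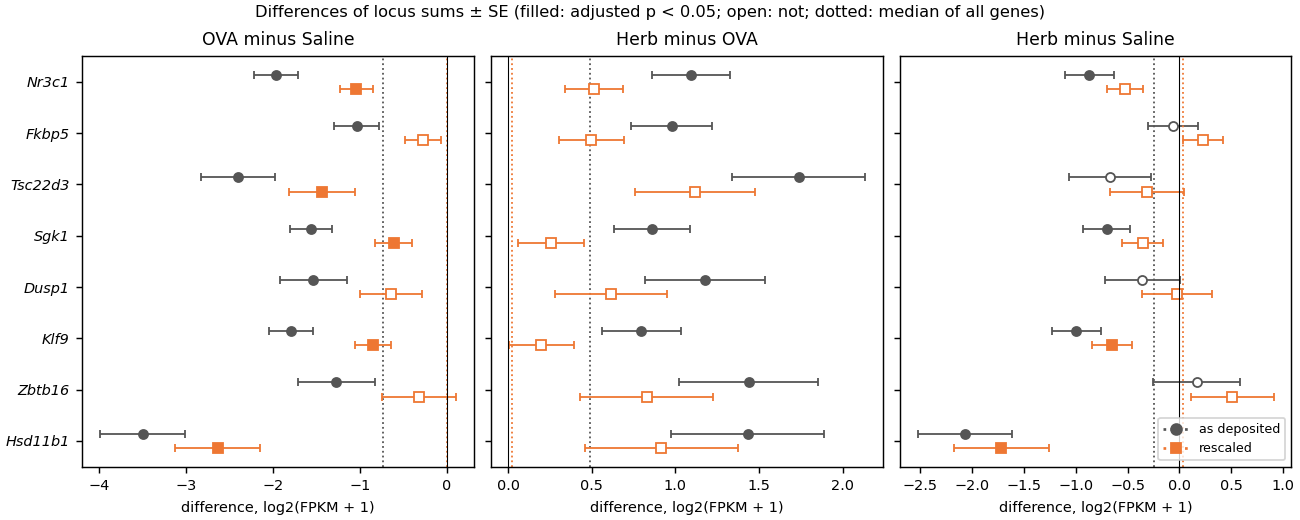
Differences of the locus sums between groups on the log2(FPKM + 1) scale (horizontal axis) with standard errors, as deposited (circles) and rescaled (squares), with symbols filled where the limma adjusted p is under 0.05 and dotted lines at the median of all genes, for example -0.73 as deposited in OVA vs. Saline. The rescaled symbols of the middle panel are all open and all to the right of 0.

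Nr3c1 (chromosome 18, 39410545 to 39519421, minus strand, GRCm38.p6) encodes the receptor itself. Its RefSeq row NM_008173 held 18.8, 17.4 and 1.95 FPKM in the Saline libraries, 3.19, 6.02 and 1.39 FPKM in OVA and 10.2, 13.4, 2.83 and 3.70 FPKM in Herb. Saline replicate 3 stood among the OVA values, and the groups overlapped. The difference of -1.31 ± 0.80 (SE) in OVA vs. Saline was accordingly not called (limma adjusted p = 0.184, and 0.632 for the rescaled -0.49 ± 0.76), but it was -2.21 without Saline replicate 3 (limma adjusted p = 0.018). An assembled model of the same locus was at 25.9 FPKM in Saline replicate 3 and between 0.572 and 4.80 FPKM in the other libraries. The RefSeq row held 50.3% and 53.4% of the locus sum in Saline replicates 1 and 2, and 5.37% in replicate 3.

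Summed over the locus, Nr3c1 was 37.4, 32.7 and 36.3 FPKM in Saline, 6.99, 12.1 and 6.77 FPKM in OVA and 20.4, 26.4, 15.3 and 15.5 FPKM in Herb. Here the Saline libraries lay close together and the groups did not overlap as deposited. After rescaling, OVA replicate 2 at 15.9 FPKM stood above Herb replicate 4 at 15.1 FPKM. The locus sum fell by 1.97 ± 0.25 (SE) on the log2 scale in OVA vs. Saline (limma adjusted p = 0.000153) and by 1.04 ± 0.19 after rescaling (limma adjusted p = 0.00226). Over all 20 alternatives to the deposited gene sum, the locus sum among them, the adjusted p of this comparison ranged from 0.000153 to 0.949. Compared with OVA, the locus sum in Herb rose by 1.09 ± 0.24 (limma adjusted p = 0.00648), and the rescaled difference was 0.52 ± 0.17 (limma adjusted p = 0.0933). Herb was below Saline by a difference of -0.87 ± 0.24 (limma adjusted p = 0.0246), or -0.53 ± 0.17 rescaled (limma adjusted p = 0.063). The call as deposited was lost without any of the Saline libraries or without Herb replicate 3 or 4 (limma adjusted p from 0.0617 to 0.0732).

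**Figure D3:**
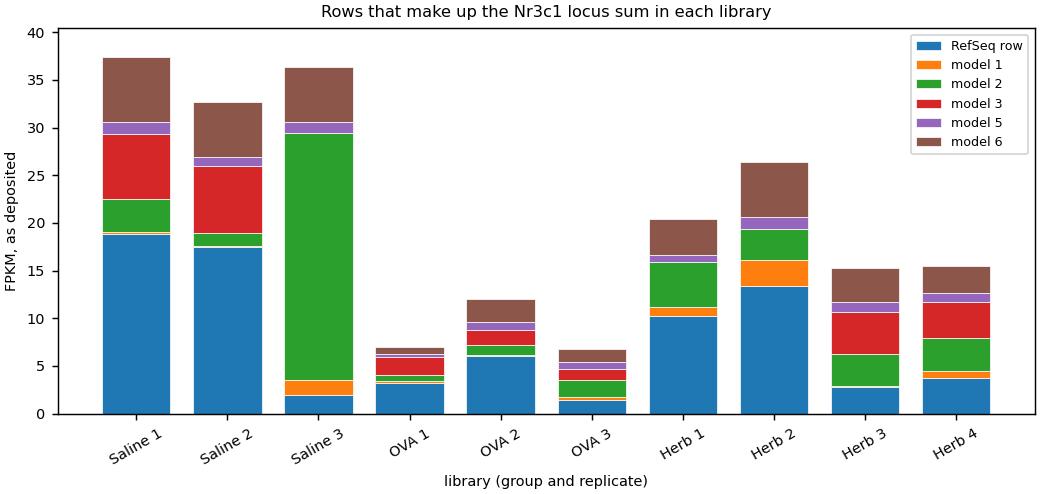
FPKM of the RefSeq row of Nr3c1 and of the 5 assembled models of its locus, stacked for each of the 10 libraries. In Saline replicate 3 the RefSeq row is 1.95 FPKM and model 2 is 25.9 FPKM, while the height of the bar, 36.3 FPKM, is close to that of the other Saline libraries.

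Fkbp5 (chromosome 17, 28398753 to 28486149, minus strand) is a co-chaperone of the receptor complex that lowers its affinity for hormone and is itself a classic induced target. The RefSeq row NM_010220 was low throughout, at 0.0342, 0.311 and 0.198 FPKM in Saline, 0.471, 0.466 and 0.851 FPKM in OVA and 1.28, 0.277, 0.529 and 0.386 FPKM in Herb. This row had its lowest values in Saline, and with a mean of 0.480 FPKM it did not pass the filter. The locus sum ran the other way, with 6.35, 6.40 and 4.76 FPKM in Saline, 1.91, 2.44 and 2.61 FPKM in OVA and 7.88, 7.22, 3.31 and 4.71 FPKM in Herb. All OVA values lay below all others, and Herb spanned the Saline range. The RefSeq row of Fkbp5 made up 0.538% to 4.86% of the locus sum in Saline and 19.1% to 32.6% in OVA (two-sided exact permutation test, p = 0.1, the smallest that 3 against 3 libraries allow).

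For the Fkbp5 locus sum OVA differed from Saline by -1.04 ± 0.26 (SE, limma adjusted p = 0.0056), which became -0.27 ± 0.21 after rescaling (limma adjusted p = 0.306). Herb differed from OVA by 0.98 ± 0.24 (limma adjusted p = 0.00998) and 0.50 ± 0.19 rescaled (limma adjusted p = 0.126). Herb and Saline differed by -0.06 ± 0.24 (limma adjusted p = 0.868), which turned to 0.23 ± 0.19 after rescaling (limma adjusted p = 0.423). The direction of Fkbp5 in OVA thus depended on whether the assembled models were counted.

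Hsd11b1 (chromosome 1, 193221640 to 193264045, minus strand) encodes the enzyme that regenerates active glucocorticoid from its inert keto form inside cells. The gene sum was 55.1, 59.0 and 50.8 FPKM in Saline, 5.24, 7.61 and 1.23 FPKM in OVA and 14.9, 21.3, 8.91 and 7.89 FPKM in Herb. No library of a group reached into another group as deposited, and OVA replicate 3 was the lowest. After rescaling, OVA replicate 2 at 10.2 FPKM stood above Herb replicates 3 and 4 at 9.52 and 7.71 FPKM. Hsd11b1 fell by 3.50 ± 0.50 (SE) on the log2 scale in OVA vs. Saline (limma adjusted p = 0.000343), and 0.58% of all genes had a lower difference. After rescaling it fell by 2.60 ± 0.50 (limma adjusted p = 0.00424), and it was called under all 20 alternatives, with an adjusted p from 0.000153 to 0.0155.

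The rise of Hsd11b1 in Herb vs. OVA was 1.43 ± 0.47 (SE, limma adjusted p = 0.0337), and 0.90 ± 0.47 after rescaling (limma adjusted p = 0.248). Without OVA replicate 1 or 3, or Herb replicate 1 or 2, the adjusted p was between 0.0591 and 0.0903. Compared with Saline, Hsd11b1 in Herb was lower by a difference of -2.07 ± 0.47 (limma adjusted p = 0.0161), or -1.70 ± 0.47 rescaled (limma adjusted p = 0.0444). That call was lost under quantile normalization, with -1.22 (limma adjusted p = 0.149), and on the protein-coding sum, with -1.41 (limma adjusted p = 0.0696). The row NM_008288 went from 42.1 to 43.5 FPKM in Saline to 1.23 to 4.84 FPKM in OVA, a difference of -3.70 ± 0.53 (limma adjusted p = 0.000889). The other row, NM_001044751, lay between 8.67 and 16.8 FPKM in Saline, held 3.35, 2.78 and 0 FPKM in the OVA libraries and lay between 4.03 and 6.62 FPKM in Herb. It held 17.1% to 28.5% of the gene sum in Saline, where the OVA shares of 63.9%, 36.5% and 0% spread too widely for a difference (exact permutation test, p = 0.7).

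Tsc22d3 (chromosome X, 140539528 to 140600522, minus strand), also known as GILZ, is a leucine zipper protein that carries anti-inflammatory effects of glucocorticoids. It had the highest level of the members in every group. Its gene sum was 157, 152 and 157 FPKM in Saline, 31.2, 45.9 and 16.5 FPKM in OVA and 150, 146, 69.1 and 63.1 FPKM in Herb. Saline values were nearly equal, all OVA values were below them, and Herb replicates 1 and 2 were near the Saline level. The row NM_010286 supplied 87.4% to 98.1% of the gene sum in all libraries, and NM_001077364 was above 0.01 FPKM only in Herb replicate 1, at 5.30 FPKM.

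Tsc22d3 fell by 2.39 ± 0.43 (SE) in OVA vs. Saline (limma adjusted p = 0.00122) and by 1.38 ± 0.39 after rescaling (limma adjusted p = 0.0212). The call was lost under quantile normalization, with -0.55 (limma adjusted p = 0.31), and on the protein-coding sum, with -0.87 (limma adjusted p = 0.11), and its adjusted p ranged from 0.000673 to 0.31 over the 20 alternatives. Tsc22d3 rose by 1.75 ± 0.41 in Herb vs. OVA (limma adjusted p = 0.0105), and 98.8% of all genes had a smaller difference. The rescaled difference of 1.11 ± 0.37 was not called (limma adjusted p = 0.106, and 0.00583 to 0.239 over the 20 alternatives). Between Herb and Saline the difference was -0.65 ± 0.41 (limma adjusted p = 0.261), and -0.27 ± 0.37 rescaled (limma adjusted p = 0.652). Within each library, Tsc22d3 stood between percentiles 97.8 and 99.7 of the expressed genes in all groups.

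Dusp1 (chromosome 17, 26505591 to 26508472, minus strand) encodes a phosphatase that switches off mitogen-activated protein kinases. It was at 21.1, 13.9 and 21.8 FPKM in Saline, 7.99, 6.19 and 3.79 FPKM in OVA and 18.7, 24.8, 9.50 and 9.24 FPKM in Herb. OVA was below both other groups, and Herb covered the Saline range and went below it. Dusp1 fell by 1.54 ± 0.39 (SE) on the log2 scale in OVA vs. Saline (limma adjusted p = 0.00776), and the rescaled difference of -0.60 ± 0.37 was not called (limma adjusted p = 0.218, and 0.00436 to 0.808 over the 20 alternatives). Against OVA, the Herb rise of 1.18 ± 0.37 (limma adjusted p = 0.0295) became 0.60 ± 0.35 after rescaling (limma adjusted p = 0.295). As deposited, this call was lost without OVA replicate 2 or 3 or Herb replicate 1 or 2 (limma adjusted p from 0.0558 to 0.0977). Herb and Saline differed by -0.36 ± 0.37 (limma adjusted p = 0.496), and by -0.0019 ± 0.35 rescaled (limma adjusted p = 0.998).

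Sgk1 (chromosome 10, 21882184 to 21999903, plus strand) encodes a kinase known for raising the activity of the epithelial sodium channel. The table holds 6 RefSeq rows for it, which start at 5 different sites. NM_001161850 was the largest of them in every Saline library, with 7.52, 20.2 and 10.6 FPKM, and was 1.15, 1.19 and 0.114 FPKM in OVA and 3.16, 4.34, 1.29 and 1.11 FPKM in Herb. All Saline values were above all others. NM_001161849 was 2.64, 2.02 and 2.39 FPKM in Saline, 0.50, 1.41 and 1.34 FPKM in OVA and 2.07, 0.716, 1.19 and 4.02 FPKM in Herb. For NM_001161850 the difference in OVA vs. Saline was -2.88 ± 0.46 (SE, limma adjusted p = 0.00136), and -2.39 ± 0.47 rescaled (limma adjusted p = 0.00751). NM_001161849 gave -0.71 ± 0.36 (limma adjusted p = 0.142). The share of NM_001161850 in the gene sum was 66.0%, 85.1% and 77.1% in Saline and 60.9%, 42.1% and 7.53% in OVA (two-sided exact permutation test, p = 0.1, the smallest possible).

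**Figure D4:**
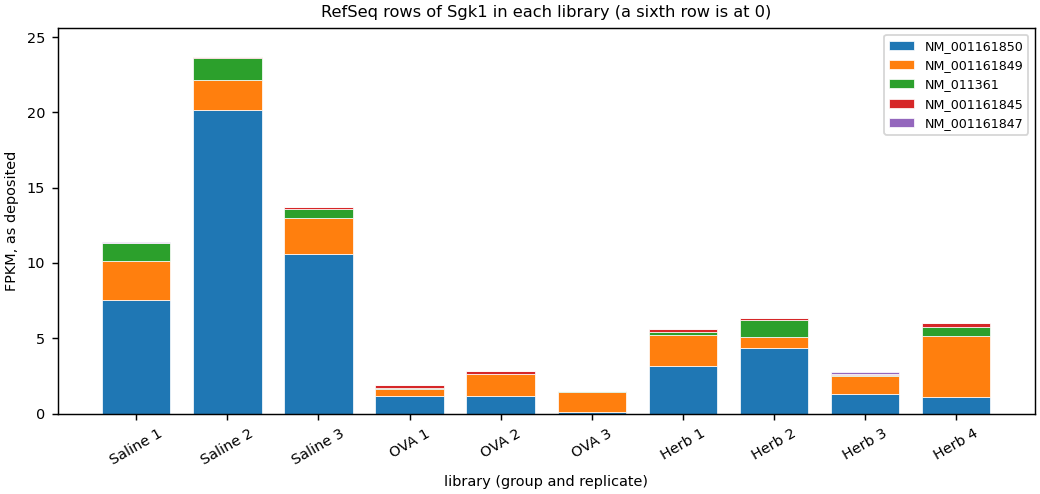
FPKM of the Sgk1 RefSeq rows, stacked for each of the 10 libraries. NM_001161850 is 7.52 to 20.2 FPKM in Saline and 0.114 to 1.19 FPKM in OVA, while NM_001161849 is 0.50 FPKM or more in every library.

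The promoter windows of these rows are shown because the start site of NM_001161850, and none of the other start sites of the members that were searched, has a glucocorticoid response element directly upstream. The element was searched as GNACANNNTGTNC, which reads the same on both strands, in windows from 250 bases before to 50 bases after each start site (RefSeq, GRCm38.p6). Of 13 windows of 6 members (Nr3c1 and Zbtb16 are not among them) 1 held it, beside 0.475% of the 32851 windows of all genes. The 250 bases upstream of each start site are given on the plus strand, 5′ to 3′, with the element in capitals.
Sgk1 NM_001161850, chr10:21993640-21993889, plus strand: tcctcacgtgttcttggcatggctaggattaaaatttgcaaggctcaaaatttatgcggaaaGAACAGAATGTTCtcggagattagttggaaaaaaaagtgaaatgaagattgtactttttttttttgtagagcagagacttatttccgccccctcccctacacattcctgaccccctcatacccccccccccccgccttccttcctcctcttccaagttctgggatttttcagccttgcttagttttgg
Sgk1 NM_001161849, chr10:21991973-21992222, plus strand: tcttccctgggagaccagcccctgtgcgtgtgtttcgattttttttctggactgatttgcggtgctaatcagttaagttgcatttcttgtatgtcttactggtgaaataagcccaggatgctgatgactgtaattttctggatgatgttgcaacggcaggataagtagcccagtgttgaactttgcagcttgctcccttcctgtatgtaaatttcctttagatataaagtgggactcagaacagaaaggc
The element GAACAGAATGTTC has its first base at position -188 from the start site of NM_001161850. A match describes these letters and does not show that the receptor binds there. The cyclic AMP response element TGACGTCA, another regulatory element searched on both strands, was held by 1 window of the members, that of Dusp1, beside 1.79% of all windows, with its first base at position -143.

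As a gene sum Sgk1 was 11.4, 23.7 and 13.7 FPKM in Saline, 1.88, 2.82 and 1.51 FPKM in OVA and 5.61, 6.33, 2.74 and 6.01 FPKM in Herb. It fell by 2.45 ± 0.33 (SE) in OVA vs. Saline (limma adjusted p = 0.000253) and by 1.62 ± 0.30 after rescaling (limma adjusted p = 0.00379), and was called under all 20 alternatives. With the assembled models the locus was 34.5, 60.0 and 38.7 FPKM in Saline, 11.8, 15.8 and 14.5 FPKM in OVA and 29.7, 32.1, 19.9 and 24.6 FPKM in Herb. The fall of the locus sum was smaller, -1.56 ± 0.24 as deposited (limma adjusted p = 0.000411) and -0.61 ± 0.21 rescaled (limma adjusted p = 0.0368). RefSeq rows held 33.0% to 39.5% of the locus sum in Saline and 10.4% to 17.9% in OVA (exact permutation test, p = 0.1). One assembled model alone was 15.5, 28.0 and 16.6 FPKM in Saline and between 6.45 and 8.45 FPKM in OVA.

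For Herb vs. OVA the gene sum of Sgk1 rose by 0.98 ± 0.30 (SE, limma adjusted p = 0.0285), and the rescaled difference of 0.51 ± 0.28 was not called (limma adjusted p = 0.28). Without OVA replicate 1 or 3 or Herb replicate 1, 2 or 4 the adjusted p as deposited was between 0.0614 and 0.0868. Compared with Saline, the gene sum in Herb gave -1.47 ± 0.30 (limma adjusted p = 0.0127) and -1.11 ± 0.28 rescaled (limma adjusted p = 0.0358), while quantile normalization gave -0.94 (limma adjusted p = 0.0609). The locus sum gave -0.70 ± 0.23 (limma adjusted p = 0.045) and -0.36 ± 0.20 rescaled (limma adjusted p = 0.218). As deposited it missed the threshold without Saline replicate 1, 2 or 3, OVA replicate 2 or 3, or Herb replicate 1, 3 or 4 (limma adjusted p from 0.05003 to 0.148).

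Klf9 (chromosome 19, 23141226 to 23168129, plus strand) encodes a zinc finger transcription factor that glucocorticoids induce quickly in many tissues. It was at 39.7, 53.8 and 42.7 FPKM in Saline, 11.1, 16.2 and 10.2 FPKM in OVA and 27.6, 28.2, 17.7 and 17.0 FPKM in Herb, with no overlap between any groups as deposited. After rescaling OVA and Herb overlapped, with OVA replicate 2 at 21.7 FPKM above Herb replicates 3 and 4 at 18.9 and 16.6 FPKM. OVA vs. Saline gave a difference of -1.79 ± 0.26 (SE, limma adjusted p = 0.000373), and -0.81 ± 0.21 after rescaling (limma adjusted p = 0.0145). The call was lost under quantile normalization, with -0.12 (limma adjusted p = 0.659), and on the protein-coding sum, with -0.32 (limma adjusted p = 0.238), and its adjusted p ranged from 0.000188 to 0.659 over the 20 alternatives. Herb vs. OVA gave 0.80 ± 0.24 (limma adjusted p = 0.0264) and 0.19 ± 0.20 rescaled (limma adjusted p = 0.572), and as deposited the adjusted p was between 0.0652 and 0.0834 without OVA replicate 1 or 3 or Herb replicate 1 or 2. Klf9 in Herb was below Saline by a difference of -0.998 ± 0.24 (limma adjusted p = 0.0202). This became 0.0514 to 0.077 without Saline replicate 2 or 3 or Herb replicate 3 or 4, and the rescaled difference of -0.63 ± 0.20 had an adjusted p of 0.064. Over the 20 alternatives the adjusted p of Klf9 in Herb vs. Saline was between 0.0129 and 0.628.

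Zbtb16 (chromosome 9, 48651797 to 48836225, minus strand), also known as PLZF, encodes a transcriptional repressor needed for innate-like lymphocytes and is strongly induced by glucocorticoids in several cell types. Its RefSeq row NM_001033324 was 23.0, 0 and 12.0 FPKM in the Saline libraries, 10.4, 9.50 and 3.63 FPKM in OVA and 39.2, 17.6, 18.9 and 10.9 FPKM in Herb. The groups overlapped widely, and the value of 0 in Saline replicate 2 decided the sign of the comparison. OVA vs. Saline gave 0.28 ± 1.03 (SE, limma adjusted p = 0.832) with this library and -1.10 without it (limma adjusted p = 0.13), and 1.083 ± 0.96 after rescaling (limma adjusted p = 0.393). The 9 assembled models of the locus were above 0 in Saline replicate 2, and the locus sum there was 41.9 FPKM.

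Zbtb16 locus sums were 47.7, 41.9 and 58.0 FPKM in Saline, 24.6, 29.0 and 10.4 FPKM in OVA and 87.8, 73.2, 46.5 and 30.001 FPKM in Herb. The Herb libraries reached above and below the Saline libraries, and all OVA libraries were the lowest. The locus sum fell by 1.27 ± 0.44 (SE) in OVA vs. Saline (limma adjusted p = 0.029), a call lost without Saline replicate 1 or 3 or OVA replicate 3 (limma adjusted p = 0.0609, 0.0848 and 0.101). It rose by 1.44 ± 0.42 in Herb vs. OVA (limma adjusted p = 0.0183, and 0.0619 without OVA replicate 3). After rescaling these differences were -0.32 ± 0.43 (limma adjusted p = 0.565) and 0.83 ± 0.40 (limma adjusted p = 0.197). Herb and Saline differed by 0.16 ± 0.42 (limma adjusted p = 0.789), and by 0.51 ± 0.40 rescaled (limma adjusted p = 0.384).

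Transcript rows were also tested singly. Of the 16 rows, 10 passed the filter, and 7 of them were lower in OVA than in Saline, beside 41.1% of all 30194 rows. These were both tested rows of Tsc22d3 and of Hsd11b1, NM_001161850 of Sgk1, and the rows of Dusp1 and Klf9. Against OVA, 3 rows rose in Herb, those of Dusp1 and Klf9 and NM_010286 of Tsc22d3, beside 31.7% of all rows. In Herb vs. Saline NM_008288 of Hsd11b1, NM_001161850 of Sgk1 and the Klf9 row were lower, beside 6.26% of all rows.

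A percentile within a library needs no scaling between libraries. Among expressed genes, Hsd11b1 stood at percentiles 97.4 to 97.5 in Saline, at 85.9, 89.4 and 23.4 in OVA and at 81.5 to 95.0 in Herb. Its OVA and Saline percentiles did not overlap (exact permutation test, p = 0.1, the smallest possible), nor did those of Herb and Saline (exact permutation test, p = 0.0571, the smallest that 3 against 4 libraries allow). The Nr3c1 locus sum had a mean percentile of 95.02 in Saline (SD 0.675, n = 3), of 87.8 in OVA (SD 4.67, n = 3) and of 93.2 in Herb (SD 1.67, n = 4), with every OVA percentile below every Saline percentile (exact permutation test, p = 0.1). Klf9 was between percentiles 94.7 and 97.2 in all libraries and its mean percentile was 96.8 in Saline and 96.3 in OVA (exact permutation test, p = 0.6). The percentile of the Sgk1 gene sum was 86.1 in Saline (SD 6.07, n = 3) and 44.55 in OVA (SD 12.45, n = 3, exact permutation test, p = 0.1), but that of its locus sum was 96.0 and 95.6 (SD 1.17 and 0.636, n = 3 each, exact permutation test, p = 0.6).

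By level, the locus sums in Saline ran from Tsc22d3 at 163 ± 4.20 FPKM over Hsd11b1 at 55.0 ± 4.11, Zbtb16 at 49.2 ± 8.15, Klf9 at 45.4 ± 7.43, Sgk1 at 44.4 ± 13.6 and Nr3c1 at 35.5 ± 2.50 to Dusp1 at 19.0 ± 4.36 and Fkbp5 at 5.84 ± 0.936 FPKM (SD, n = 3 each). The values of Hsd11b1, Zbtb16, Klf9, Sgk1 and Nr3c1 overlapped from neighbour to neighbour, and the steps to Tsc22d3, Dusp1 and Fkbp5 were clear of the spread. In OVA Tsc22d3 came first at 32.6 ± 15.3 FPKM and Fkbp5 last at 2.32 ± 0.363 FPKM (SD, n = 3 each), every neighbour overlapped, and Hsd11b1 had moved from the second place to the seventh. Herb kept the OVA order, from 110 ± 47.4 FPKM for Tsc22d3 to 13.2 ± 6.19 FPKM for Hsd11b1 and 5.78 ± 2.14 FPKM for Fkbp5 (SD, n = 4 each). No models were assigned to Hsd11b1, Klf9 and Dusp1, so their values in these orders are gene sums. The order depends on the measure. By gene sums in Saline, the mean of Dusp1 (19.0 FPKM) was above those of Sgk1, Nr3c1 and Zbtb16 (16.3, 12.7 and 11.7 FPKM), with overlapping libraries.

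The genes whose centred, rescaled profile over the 10 libraries had the smallest mean absolute difference from a member were Thbd, Figf and Aqp1 for Tsc22d3, at 0.13 to 0.16 on the log2 scale where the median of all genes was 0.66. For Hsd11b1 they were Cyp4b1, Sdpr and Ctgf (0.19 to 0.23, median of all genes 1.00), and for Klf9 Mafk, Rnf144b and Fbxo30 (0.07 to 0.09, median 0.45). Dusp1 had Egflam, Snai2 and Arhgdia (0.16 to 0.18, median 0.52). The neighbours of the single RefSeq rows of Nr3c1 (Trappc8, Rybp and Angptl4, 0.31 to 0.36) and Zbtb16 (Fbrs, Col4a2 and Pcsk5, 0.57 to 0.58) were farther away. For the Nr3c1 locus sum Pard6g, Ctdspl and Inafm2 lay within 0.05 to 0.06. Samples of one group share their condition, so these values describe shared profiles only.

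The other genes of the pathway were counted by list, on gene sums, and their differences are rescaled unless said otherwise. Each count stands against the shares over all genes. As deposited 57.9% fell in OVA vs. Saline, and 44% rose from OVA to Herb. After rescaling they were 20.9% lower and 20.8% higher in OVA vs. Saline, 0.367% higher in Herb vs. OVA, and 6.79% lower and 7.86% higher in Herb vs. Saline. Of 12 receptor chaperones, 9 fell as deposited in OVA vs. Saline and 2 after rescaling. They were Ptges3, the p23 co-chaperone that stabilizes the hormone-binding form (-0.87 ± 0.22 rescaled, SE, limma adjusted p = 0.0123), and Hsp90ab1, an HSP90 isoform (-0.65 ± 0.15, limma adjusted p = 0.00795). Hsp90ab1 was between 102 and 115 FPKM in Saline, 24.3 and 42.3 FPKM in OVA and 72.7 and 97.3 FPKM in Herb. In the Herb vs. OVA comparison 8 chaperones rose as deposited and none was called by limma after rescaling, with 1 at an unadjusted p under 0.05, Hsp90ab1 at 0.65 ± 0.14 (limma adjusted p = 0.0662). None was called in Herb vs. Saline after rescaling, with 3 at an unadjusted p under 0.05, and Stip1 had the smallest p at 0.45 ± 0.14 (limma adjusted p = 0.0661).

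Of the coregulators that help the receptor open or close chromatin, 10 of 12 were tested. As deposited 5 fell in OVA vs. Saline and 4 rose in Herb vs. OVA. After rescaling the corepressors Nrip1 (1.52 ± 0.51, SE, limma adjusted p = 0.0408) and Ncor1 (0.67 ± 0.21, limma adjusted p = 0.0312) were higher in OVA and the acetyltransferase Ep300 was lower (-0.41 ± 0.10, limma adjusted p = 0.0108). As deposited Ncor1 differed by -0.05, so its direction turned with the scaling. Nrip1 was 0.105, 0.33 and 5.90 FPKM in Saline and 2.91 to 3.11 FPKM in OVA, so its Saline libraries were on both sides of OVA. No coregulator was called by limma after rescaling in either Herb comparison, with 0 of 10 at an unadjusted p under 0.05 against OVA and 3 against Saline, and Ep300 gave 0.16 ± 0.09 against OVA (limma adjusted p = 0.301) and -0.25 ± 0.09 against Saline (limma adjusted p = 0.097).

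Steroid enzymes and transport genes were mostly low, and 6 of 13 were tested. H6pd, which supplies the cofactor that Hsd11b1 needs, was 44.1, 48.2 and 50.3 FPKM in Saline, 4.11, 13.7 and 6.94 FPKM in OVA and 28.7, 31.6, 10.8 and 17.1 FPKM in Herb. It fell by 2.53 as deposited in OVA vs. Saline (limma adjusted p = 0.00106) and by 1.57 ± 0.37 (SE) after rescaling (limma adjusted p = 0.00996). The steroid exporter Abcb1a was 9.25, 6.68 and 9.98 FPKM in Saline and had a value of 0 in each OVA and Herb library, for which no fold is given. Nr3c2, the mineralocorticoid receptor, was higher in OVA (0.42 ± 0.11, limma adjusted p = 0.0169) and in Herb (0.67 ± 0.10, limma adjusted p = 0.0133) than in Saline after rescaling, whereas the difference of OVA was -0.09 as deposited. No gene of the list was called in Herb vs. OVA after rescaling, with 3 at an unadjusted p under 0.05, and Srd5a3 had the smallest p (0.29 ± 0.11, limma adjusted p = 0.136).

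Of 28 other genes known to be induced by glucocorticoids, 26 were tested as deposited, where 19 fell in OVA vs. Saline (57.9% of all genes did) and 12 rose in Herb vs. OVA (44% of all genes did). After rescaling 8 of 25 were lower and 3 higher in OVA, beside 20.9% and 20.8% of all genes, and the median difference was -0.67, where that of all genes was -0.0015. Errfi1, which restrains signalling by ErbB receptors, gave -2.48 ± 0.47 (SE, limma adjusted p = 0.00407), and Pdk4, a kinase that restrains glucose oxidation, gave -2.22 ± 0.51 (limma adjusted p = 0.00896). Cd163, a scavenger receptor of macrophages, was higher in OVA (1.495 ± 0.31, limma adjusted p = 0.00577), as was Tnfaip3, an inhibitor of NF-kB signalling (0.99 ± 0.17, limma adjusted p = 0.00292). As deposited neither was called, with 0.79 for Cd163 and 0.12 for Tnfaip3 (limma adjusted p = 0.0638 and 0.59). None of the 25 was called by limma in Herb vs. OVA after rescaling, with 7 at an unadjusted p under 0.05, among them Lcn2 at 0.99 ± 0.26 (limma adjusted p = 0.0745). Against Saline, 3 were higher in Herb, compared with 7.86% of all genes, and 2 were lower. Cd163 (1.60 ± 0.29, limma adjusted p = 0.0163) and Tnfaip3 (0.71 ± 0.16, limma adjusted p = 0.0258) were among the former, and Anxa1 (-0.74 ± 0.21, limma adjusted p = 0.0461) and the transglutaminase Tgm2 (-0.55 ± 0.13, limma adjusted p = 0.0251) were the latter. As deposited Tnfaip3 was not called between Herb and Saline (0.41, limma adjusted p = 0.118), whereas Cd163 was (1.41, limma adjusted p = 0.0152).

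Inflammatory genes that glucocorticoids are known to repress were tested for 8 of 20, since the type 2 cytokines and most others had a mean under 1 FPKM. None rose in OVA vs. Saline. As deposited 6 fell, and after rescaling the chemokine Ccl5 (-2.01 ± 0.31, SE, limma adjusted p = 0.00188) and the adhesion molecule Icam1 (-1.12 ± 0.24, limma adjusted p = 0.00698) were lower. Ccl5 was 10.9, 8.19 and 6.70 FPKM in Saline, 0.534, 0.28 and 0.77 FPKM in OVA and 1.64, 3.21, 1.03 and 3.85 FPKM in Herb. Both were also lower in Herb than in Saline after rescaling (-1.20 ± 0.29 and -0.88 ± 0.23, limma adjusted p = 0.0312 and 0.0375). Between Herb and OVA 6 of the 8 rose as deposited and none was called by limma after rescaling, with 2 at an unadjusted p under 0.05, among them Mmp9 at 0.57 ± 0.21 (limma adjusted p = 0.125).

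Clock genes keep the daily rhythm that circulating glucocorticoid also follows, and immediate early genes answer to stimuli within minutes. Of 12 clock genes tested, 3 were lower and 2 higher in OVA vs. Saline after rescaling. Rora (-1.39 ± 0.24, SE, limma adjusted p = 0.00252) and Clock (-0.98 ± 0.15, limma adjusted p = 0.00159) were lower, and Per2 (1.31 ± 0.42, limma adjusted p = 0.0335) and Per3 (0.60 ± 0.16, limma adjusted p = 0.0149) were higher. As deposited neither of the 2 higher genes was called, with 0.94 for Per2 and -0.15 for Per3 (limma adjusted p = 0.0716 and 0.263). Per2 was a low gene. No Saline library exceeded 0.369 FPKM for it, and its OVA libraries ranged widely, from 0.385 to 3.16 FPKM. In Herb vs. Saline Cry1 (-0.87 ± 0.17, limma adjusted p = 0.0184) and Clock (-0.60 ± 0.14, limma adjusted p = 0.0256) were lower, and none of the 12 was called in Herb vs. OVA, with 2 at an unadjusted p under 0.05, among them Rora at 0.74 ± 0.22 (limma adjusted p = 0.0894). Of 11 immediate early genes tested, Jund (1.15 ± 0.16, limma adjusted p = 0.00147) and Junb (0.97 ± 0.25, limma adjusted p = 0.0137) were among 3 that were higher in OVA after rescaling, and Ier3 (-0.75 ± 0.26, limma adjusted p = 0.0457) was lower. Against Saline, Herb had higher Jund (0.66 ± 0.15, limma adjusted p = 0.0266) and Ier2 (0.54 ± 0.14, limma adjusted p = 0.0381) and lower Ier3 (-0.98 ± 0.24, limma adjusted p = 0.0335), and against OVA none was called, with 2 at an unadjusted p under 0.05, among them Jund (-0.48 ± 0.15, limma adjusted p = 0.0995, and 0.13 as deposited). As deposited Jund and Junb differed between OVA and Saline by 0.19 and 0.02. Between Herb and Saline, Jund and Ier2 differed by 0.32 and 0.20 as deposited (limma adjusted p = 0.154 and 0.461).

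**Figure D5:**
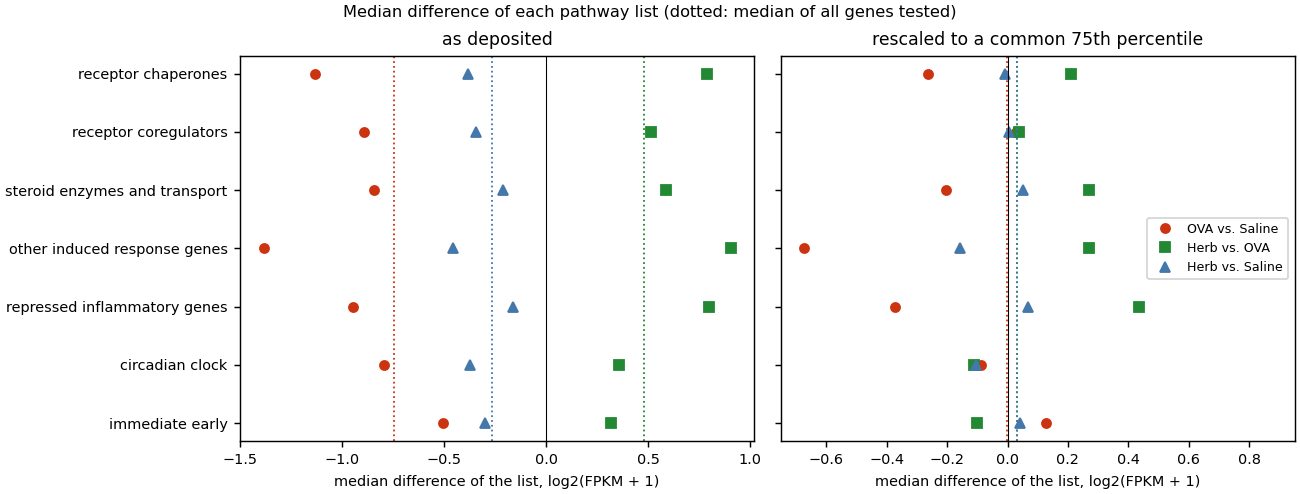
Median difference of each pathway list between groups on the log2(FPKM + 1) scale (horizontal axis), as deposited (left) and rescaled (right), with dotted lines at the median of all genes tested. The other induced response genes lie farthest to the left in OVA vs. Saline, at -1.39 as deposited and -0.67 rescaled.

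Markers of lung cell types moved in the same comparison, and their part in the differences of the receptor genes was not tested. Markers of alveolar type 1 cells summed to 740 to 873 FPKM in Saline, 57.2 to 174 FPKM in OVA and 189 to 408 FPKM in Herb, and 5 of the 6 tested were lower in OVA after rescaling. For alveolar type 2 cells 5 of 8 were lower (3407 to 4459, 477 to 831 and 1102 to 2012 FPKM in the same order), and for endothelial cells 4 of 8 (401 to 498, 85.1 to 138 and 180 to 329 FPKM). Sftpc made up most of the type 2 sum in Saline, at 2371 to 3228 FPKM, and was 210 to 460 FPKM in OVA. As deposited, Abca3 and Slc34a2 overlapped between Saline and OVA, and the other type 2 markers did not. Fibroblast markers summed to 622 to 695, 71.8 to 160 and 186 to 398 FPKM, with 4 of 7 lower and 2 higher, and Col1a2 was listed at 0 in all OVA libraries. Inmt made up most of this sum in Saline, at 464 to 507 FPKM, and was 7.91 to 69.7 FPKM in OVA. Pdgfra, Dcn, Lum and Tcf21 were also lower in every OVA library than in any Saline library, as deposited. Col3a1 was 12.7 to 42.6 FPKM in Saline and 36.7 to 43.9 FPKM in OVA, and Col1a1 was 7.74 to 19.6 FPKM and 14.1 to 15.9 FPKM. Erythroid markers had 4 of 5 lower, from 5735 to 6971 FPKM in Saline to 31.0 to 562 FPKM in OVA and 1078 to 1584 FPKM in Herb. Macrophage markers were at 117 to 242 FPKM in Saline, 89.0 to 305 FPKM in OVA and 386 to 656 FPKM in Herb, with 2 of 8 higher and 2 lower in OVA. Most of this sum was Chil3, at 71.0 to 163, 69.7 to 256 and 320 to 593 FPKM in the same order. As deposited, Adgre1, C1qa and C1qb were also higher in every Herb library than in any Saline library. Cd68, Fabp1 and Ear2 were lower in every Herb library, and Marco and Mrc1 overlapped. Of the remaining lists, 3 of 6 smooth muscle, 2 of 8 club and goblet, 1 of 7 ciliated and 1 of 6 cardiac muscle markers were higher in OVA after rescaling, and 3 of 3 eosinophil, 2 of 8 club and goblet, 2 of 7 B and plasma cell, 2 of 6 cardiac muscle and 1 of 6 neutrophil markers were lower. The 3 eosinophil markers tested were Siglecf, Ear1 and Ear2, and Ear2 is also on the macrophage list. Untested low markers went the other way as deposited. Prg2 was 0 FPKM in Saline and 0.877 to 1.65 FPKM in OVA. Epx was 0 to 0.0174 FPKM in Saline and 0.0316 to 0.0858 FPKM in OVA, and Ccr3 was 0.0409 to 0.103 FPKM and 0.105 to 0.303 FPKM. Il5ra and Ear6 overlapped between these groups. Of 3 T cell markers and 1 mast cell marker tested, limma called none in OVA vs. Saline after rescaling, with 2 T cell markers at an unadjusted p under 0.05. In Herb vs. OVA 1 fibroblast marker was the single marker of any list called after rescaling by limma. Muc5ac, Prg2, Ear6 and Mcpt8 were listed at 0 in all Saline libraries. Col1a2, Myl7, Tpsb2 and Fcer1a were so in all OVA libraries, and Rtkn2 and Ear6 in all Herb libraries.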

How the data were processed

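RNA-seq libraries of whole lung from 10 mice were grouped by the sample labels, which name 3 Saline, 3 OVA and 4 Herb samples. The authors trimmed reads, mapped them to mm10 using Hisat2, assembled transcripts with StringTie, extracted abundances through ballgown and deposited FPKM, with 1 row for each of 66548 transcripts, and a further scaling between libraries is not given in the sources used here. The submitters' processing notes also name cutadapt 1.10, StringTie 1.3.3b and edgeR 3.16.5. The labels and the methods name different TruSeq kits, so strand-specific counting is not assumed.

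No read counts were used, so no count model was fitted. Rows were summed per gene symbol, and log2(FPKM + 1) was tested with limma 3.58.1 (R 4.3.3, lmFit and eBayes with trend) over the 11205 genes with a mean of at least 1 FPKM, in a single model of the 3 groups over all libraries, with Benjamini-Hochberg adjustment. A call is an adjusted p under 0.05. Differences on this scale understate the change of low genes. Alternatives were rescaling to a common 75th percentile, quantile normalization, rescaling to the sum of protein-coding rows, a pseudocount of 0.1, other filters on low values, a fit of the groups compared, a replicate block and leaving out each library. Depth was estimated from the steps between FPKM values under 0.1, and it limits the precision of low rows. The procedure was tested on simulated data. Where the mice of a group are separate animals the p-values measure the spread between mice, and otherwise that between samples.

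The locus sum was added after seeing the data. It joins the RefSeq rows of a symbol with the assembled models of a locus number where those rows stand among or next to the models in the table, as many model numbers are missing from the locus as the symbol has rows, and the match is unique. This assigned 2448 symbols.

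The members and the gene lists were chosen with earlier results of these data known. The genes named from each list are, per comparison, the 2 most raised and the 2 most lowered at most, by size of the difference among calls after rescaling to the 75th percentile, or else the gene with the smallest p. For each member with a mean of at least 1 FPKM the 3 genes with the likest profile are named, and those of Sgk1 are not reported here. Marker genes of the cell type lists are named where they were listed at 0, check the tissue or show how the genes of a list differ. Positions and promoter windows are those of RefSeq for GRCm38.p6, the assembly that mm10 represents. The other steps ran in Python 3.11.15 (pandas 2.3.3, numpy 2.4.6, matplotlib 3.10.9 and scipy 1.17.1).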

Additional observations from a re-analysis of the deposited data

How the results depend on the processing

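The 5 members that fell in OVA vs. Saline as deposited (8 with locus sums) were 2 under quantile normalization and 2 when rescaled to the protein-coding sum, and the 7 rows called were 4 after rescaling to the 75th percentile. Beside them, 6485 of all 11205 genes fell as deposited, 1917 of 11205 under quantile normalization and 978 of 11258 on the protein-coding sum. In Herb vs. OVA the 5 members were 0 after rescaling to the 75th percentile, with gene or locus sums, 0 under quantile normalization, 0 on the protein-coding sum, 2 without a filter, 3 in a fit of only the groups compared and 8 with locus sums, and the 3 rows were 0 after rescaling. Here 4932 of all 11205 genes rose as deposited and 41 of 11176 after rescaling to the 75th percentile. Under quantile normalization 56 of 11205 rose, and 78 of 11258 on the protein-coding sum. Of the 3 in Herb vs. Saline, 0 were called under quantile normalization and 1 on the protein-coding sum. The genes lower in Herb were 2549 of 11205 as deposited, 382 of 11205 under quantile normalization and 321 of 11258 on the protein-coding sum. Leaving out each library gave 5 to 6, 1 to 5 and 1 to 3 members in these comparisons, and 7 to 8, 4 to 8 and 1 to 4 with locus sums. Signs turned for Zbtb16 in OVA vs. Saline (-1.10 without Saline replicate 2, within a range of -1.10 to 1.19 when each library was left out, -1.27 with locus sums and -0.32 with locus sums rescaled). They turned for Klf9 in Herb vs. OVA (-0.032 under quantile normalization and -0.022 on the protein-coding sum), and in Herb vs. Saline for Tsc22d3 (0.20 and 0.026), Dusp1 (0.22 and 0.27) and, on the protein-coding sum, Nr3c1 (0.068). None of these turned values was called other than that of the Zbtb16 locus sum as deposited. The number of genes called in OVA vs. Saline, 6853 of 11205 tested, was 4004 under quantile normalization, 3180 when the filter was 5 FPKM and 6118 to 6839 without a library. The filter of 5 FPKM left 3955 genes to test in each comparison, so its counts stand against fewer genes. The 4982 genes of Herb vs. OVA were 81 (65 with locus sums) after rescaling to the 75th percentile, 157 under quantile normalization, 708 on the protein-coding sum, 2722 under the 5 FPKM filter and 3221 to 5070 without a library. The 2921 of Herb vs. Saline were 1637, 841 and 1716 under the 75th percentile, quantile normalization and the 5 FPKM filter, 1342 with the replicate block and 894 to 3254 without a library. Of calls as deposited, 5.37%, 99% and 12.7% were higher in the 3 comparisons, 49.9%, 50.6% and 53.6% after rescaling to the 75th percentile, and 81.9%, 11.0% and 87.0% on the protein-coding sum, which turned the direction of most calls in each comparison.

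The replicate numbers do not pair the mice. Deviations of same-numbered libraries correlated with r from -0.00869 to 0.0953, and 6 of 18 libraries correlated best with their own number. With the replicate block 6 members were called in OVA vs. Saline, 5 in Herb vs. OVA and 3 in Herb vs. Saline. Depth leaves rows under about 0.1 FPKM resting on few fragments, the cause of the changes between scalings was not tested, and exact tests of 3 against 3 libraries cannot go below 0.1.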

Other observations

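In the Herb group, replicates 1 and 2 had higher locus sums than replicates 3 and 4 for all 8 genes, as deposited and after rescaling to a common 75th percentile. Over all 11789 genes this order was found in 43.7% as deposited and in 21.5% after rescaling. It was noticed after the values were seen, and no test was made of it. Tsc22d3 was 150 and 152 FPKM in the former libraries and 71.9 and 66.5 FPKM in the latter, and Dusp1 was 18.7 and 24.8 FPKM against 9.50 and 9.24 FPKM. The protein-coding share of the summed FPKM was 9.96% and 13.6% in Herb replicates 1 and 2 and 8.44% and 8.77% in replicates 3 and 4, and its part in this order was not tested.

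The spread of the locus sums between replicates is given as values, with no test. On the log2 scale after rescaling, the Saline locus sums of Tsc22d3 and Nr3c1 had an SD of 0.02 and 0.05 (n = 3), while the OVA locus sums had 0.73 and 0.33 (n = 3). Sgk1 had an SD of 0.46 in Saline and 0.04 in OVA, and Fkbp5 had 0.21 and 0.10 (n = 3 each). For Klf9 the SD was 0.28 in Saline, 0.26 in OVA and 0.27 in Herb.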
